A study of Rattus with 6 samples.

Results

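The BCL2 family of apoptosis regulators was followed through 10 genes, Bax, Bak1, Bcl2, Bcl2l1, Mcl1, Bbc3, Pmaip1, Bcl2l11, Bid and Bad, chosen by gene name from the 54012 genes of the deposited table. All 10 were in the table, each once, and all 10 passed the filter on low values, a mean FPKM of 1 or more across libraries, which left 12080 genes to be tested. FPKM are fragments scaled to gene length and to library size, a scale on which levels of different genes are usually set side by side. The libraries came from primary cultures labelled as vascular smooth muscle cells of the aorta, all treated with Ang II (angiotensin II, a vasoconstrictor peptide hormone). The si-NC group (3 libraries, genotype label WT) received a control siRNA and the si-CDCP1 group (3 libraries, genotype label CDCP1 knockdown) an siRNA against CDCP1, a transmembrane glycoprotein. The dose and duration of Ang II and the number of animals are not given in the labels, and every comparison below is between the siRNAs under Ang II.

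Proteins of this family decide whether the outer mitochondrial membrane is breached in apoptosis. BAX and BAK, the effectors, form pores through which cytochrome c leaves the mitochondrion. The guardians BCL2, BCL-XL (encoded by Bcl2l1) and MCL1 hold the effectors in check. The BH3-only proteins PUMA (Bbc3), NOXA (Pmaip1), BIM (Bcl2l11), BID and BAD carry stress signals to them by binding guardians or, for some, by activating the effectors directly. Much of this control acts on the proteins, by cleavage, phosphorylation and degradation, which transcript levels do not measure.

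Reads in listed genes numbered between 16050517 and 19771638 a library. The siRNA target Cdcp1 had between 0 and 5 reads in each library, which left the knockdown label unchecked. The organism label is rat and the table holds mouse genes on the mouse build mm10. Whether rat reads were placed on mouse genes is not known here; if so, genes would lose reads to different degrees, which leaves the order of levels between genes, the marker levels and the genes listed at 0 uncertain. Of 8 smooth muscle markers, 2 reached a mean of 1 FPKM: Acta2, at 37.4 ± 1.95 and 46.8 ± 15.5 FPKM in si-NC and si-CDCP1 (SD, n = 3 each), and Smtn, at 8.26 ± 0.289 and 8.84 ± 1.24 FPKM. Tagln, Cnn1 and Myh11 averaged under 1 FPKM in both groups, so the markers give a mixed picture of the labelled cell type. Of the 5 fibroblast markers 3 reached that mean: Col1a1, at 279 ± 17.2 and 278 ± 18.8 FPKM, Pdgfra, at 10.4 ± 0.361 and 8.69 ± 0.984 FPKM, and Dcn, at 1.27 ± 0.299 and 1.26 ± 0.150 FPKM. Of the macrophage and blood markers only Cd68 did (1.05 FPKM over the 6 libraries), and of the epithelial markers only Krt19 (1.11 FPKM). The summed level of the endothelial markers was between 0.676 and 0.874 FPKM over the 6 libraries, with Cdh5 at 0. One library, si-CDCP1 replicate 3, stood apart: its Pearson correlation with the others over genes, on log2(FPKM + 1), lay between 0.9787 and 0.9831, while pairs of the other 5 lay between 0.9877 and 0.9905. Results that rest on it are given with and without it.

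The 10 genes spanned about an order of magnitude in level, and the order was the same at both ends in every library. Bax was the highest, with a mean of 53.96 FPKM over the 6 libraries, above 92.5% of the genes tested. Mcl1 followed at 43.9 FPKM, then Bak1 at 28.3 FPKM, Bid at 22.1 FPKM and Bad at 11.1 FPKM. Bbc3 (8.62 FPKM), Bcl2l1 (8.28 FPKM), Bcl2l11 (7.60 FPKM) and Pmaip1 (6.05 FPKM) came next, and Bcl2 was the lowest at 4.84 FPKM, above 31.7% of the genes tested. The ranges of neighbours over the 6 libraries did not overlap for Bax and Mcl1, Mcl1 and Bak1, Bid and Bad, or Pmaip1 and Bcl2. They did for Bak1 and Bid and for each neighbouring pair from Bad down to Pmaip1. Bbc3 and Bcl2l1 changed places, Bbc3 being the higher in 3 of 6 libraries.

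Among the guardian transcripts Mcl1 was therefore the most abundant in every library. Its FPKM was between 8.45 and 10.5 times that of Bcl2 and between 4.45 and 7.20 times that of Bcl2l1 within a library. The effectors Bax and Bak1 together made up between 39.9% and 44.8% of the summed FPKM of the 10 genes, the 3 guardians between 27.5% and 31.5%, and the 5 BH3-only genes between 27.7% and 29.04%.

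Bax, Bid and Bbc3 were the members whose lowest si-CDCP1 value was above the highest si-NC value. The ratios of mean FPKM, si-CDCP1 over si-NC, were 1.22 for Bax, 1.25 for Bid and 1.21 for Bbc3. None passed the threshold in limma (a moderated test on log2(FPKM + 1), two-sided, Benjamini-Hochberg adjusted over all 12080 genes, threshold 0.05), which called 0% of genes. In bulk cultures a higher level in every cell and more cells that express a gene cannot be told apart.

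**Figure D1:**
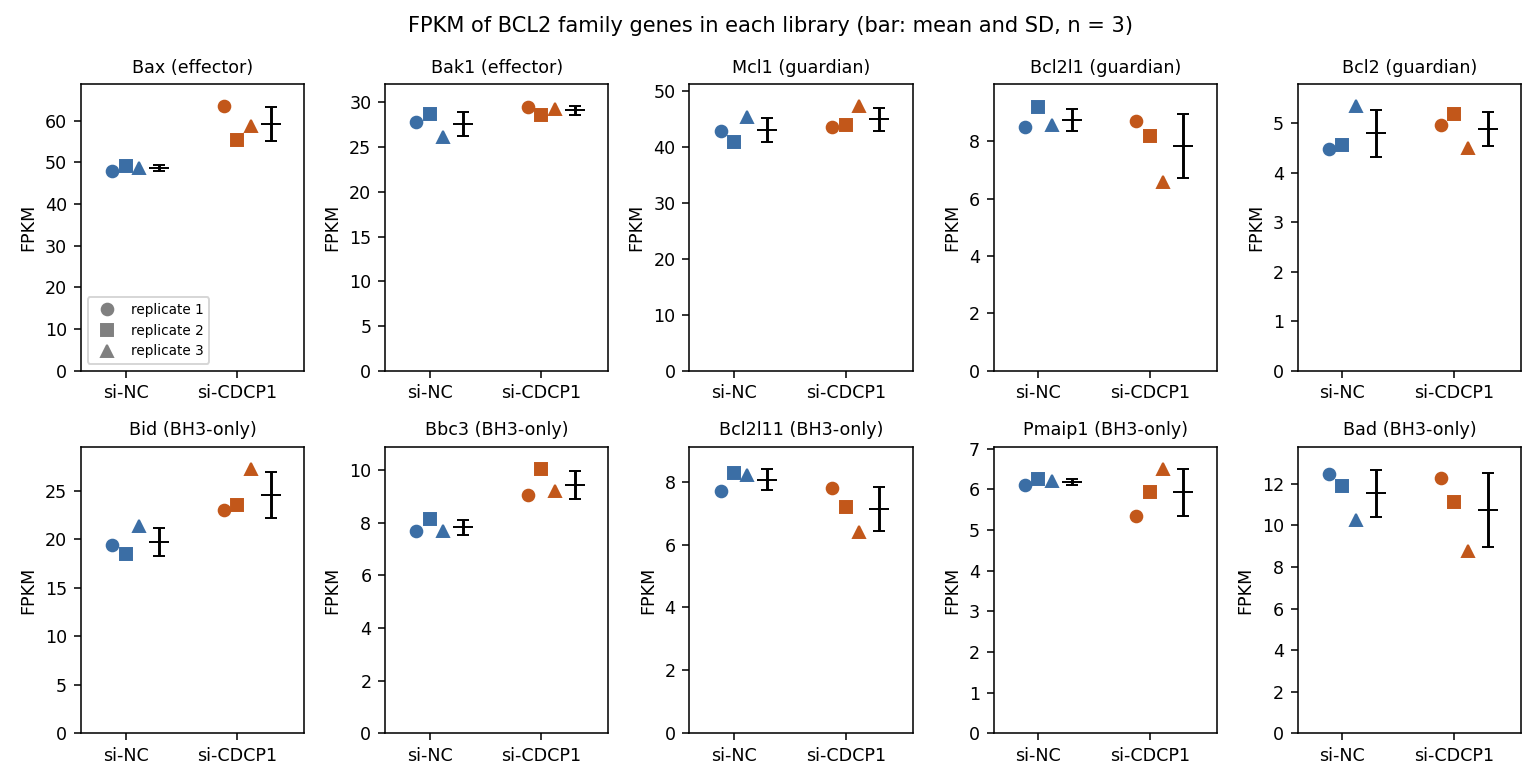
FPKM (vertical axes, from 0) of the 10 genes in the 3 si-NC (blue) and 3 si-CDCP1 (orange) libraries, with marker shapes for the replicate number and a bar for the mean and SD (n = 3). For Bax, Bid and Bbc3 all orange points lie above all blue points, and for the other 7 genes the groups overlap.

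Of the effectors, Bax is the one that moves from the cytosol to the mitochondrion on activation. It was at 47.9, 49.3 and 48.8 FPKM in si-NC replicates 1, 2 and 3 and at 63.6, 55.4 and 58.8 FPKM in si-CDCP1 replicates 1, 2 and 3. The si-NC libraries lay close together and every si-CDCP1 library was above them, replicate 1 the most. The means were 48.6 ± 0.700 and 59.3 ± 4.13 FPKM (SD, n = 3 each). Their difference on the log2 scale was 0.28 (SE 0.059, 95% interval 0.14 to 0.42), with a limma adjusted p of 0.267. Its unadjusted p, 0.00216, ranked 88th from the smallest among 12080 genes.

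Bak1, whose product resides in the outer mitochondrial membrane, was at 27.9, 28.7 and 26.2 FPKM in si-NC and at 29.4, 28.6 and 29.3 FPKM in si-CDCP1. The groups overlapped, since si-NC replicate 2 was above si-CDCP1 replicate 2. The log2 difference was 0.08 (95% interval -0.05 to 0.20), and 0.07 without si-CDCP1 replicate 3. Within a library Bax was between 1.71 and 1.86 times as high as Bak1 in si-NC and between 1.94 and 2.16 times in si-CDCP1.

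The 3 guardians among the 10 genes showed no separation of the groups. Mcl1, which encodes a short-lived protein, was at 42.9, 40.8 and 45.2 FPKM in si-NC and at 43.5, 43.8 and 47.3 FPKM in si-CDCP1, a log2 difference of 0.06 (95% interval -0.08 to 0.20), and 0.02 without si-CDCP1 replicate 3. Bcl2, the founding member of the family, was at 4.47, 4.57 and 5.34 FPKM against 4.97, 5.19 and 4.51 FPKM, a log2 difference of 0.02 (95% interval -0.17 to 0.22), and 0.07 without that library. The values of both groups were interleaved for each of the 2 genes.

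Bcl2l1, which encodes BCL-XL and, by alternative splicing, the pro-apoptotic BCL-XS that gene-level values do not resolve, was at 8.49, 9.19 and 8.56 FPKM in si-NC and at 8.72, 8.19 and 6.57 FPKM in si-CDCP1. Only si-CDCP1 replicate 3 was well below the rest. The log2 difference was -0.15 (95% interval -0.38 to 0.08) with it and -0.04 without it.

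Of the BH3-only genes, Bid and Bbc3 separated the groups and the other 3 did not. Bid, whose product is cut by caspase-8 and links death receptors to mitochondria, was at 19.4, 18.5 and 21.3 FPKM in si-NC and at 23.0, 23.5 and 27.3 FPKM in si-CDCP1. The highest value was in si-CDCP1 replicate 3. The means were 19.7 ± 1.46 and 24.6 ± 2.34 FPKM (SD, n = 3 each). Their difference on the log2 scale was 0.30 (SE 0.083, 95% interval 0.11 to 0.50), with a limma adjusted p of 0.275. Without si-CDCP1 replicate 3 the difference was 0.23.

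Bbc3 encodes PUMA, a BH3-only protein induced by p53 and by stress of the endoplasmic reticulum. It was at 7.66, 8.14 and 7.66 FPKM in si-NC and at 9.03, 10.1 and 9.20 FPKM in si-CDCP1. Here si-CDCP1 replicate 2 was the highest, so that a different si-CDCP1 library was on top for each of Bax, Bid and Bbc3. The means were 7.82 ± 0.277 and 9.43 ± 0.548 FPKM (SD, n = 3 each). Their difference on the log2 scale was 0.24 (SE 0.060, 95% interval 0.10 to 0.38), with a limma adjusted p of 0.267. Without si-CDCP1 replicate 3 it was 0.26.

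Bcl2l11 encodes BIM, a FOXO target that binds every guardian. It was at 7.69, 8.28 and 8.23 FPKM in si-NC and at 7.81, 7.19 and 6.40 FPKM in si-CDCP1. One si-CDCP1 library, replicate 1, lay inside the si-NC range and the other two below it. The log2 difference was -0.16 (95% interval -0.34 to 0.02) and -0.09 without si-CDCP1 replicate 3.

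Pmaip1 encodes NOXA, which acts mainly on MCL1. It was at 6.10, 6.26 and 6.19 FPKM in si-NC and at 5.35, 5.94 and 6.49 FPKM in si-CDCP1. The si-CDCP1 libraries lay on both sides of the tight si-NC values, and the log2 difference was -0.06 (95% interval -0.23 to 0.12), or -0.11 without si-CDCP1 replicate 3. It is known as a p53 target, as are Bax and Bbc3.

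Bad, whose product is held in the cytosol by 14-3-3 proteins when phosphorylated, was at 12.5, 11.9 and 10.3 FPKM in si-NC and at 12.3, 11.1 and 8.78 FPKM in si-CDCP1. Its spread within si-CDCP1, a CV of 16.7%, was the widest of the 10 genes. The log2 difference was -0.10 (95% interval -0.40 to 0.19), and 0.02 without si-CDCP1 replicate 3.

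**Figure D2:**
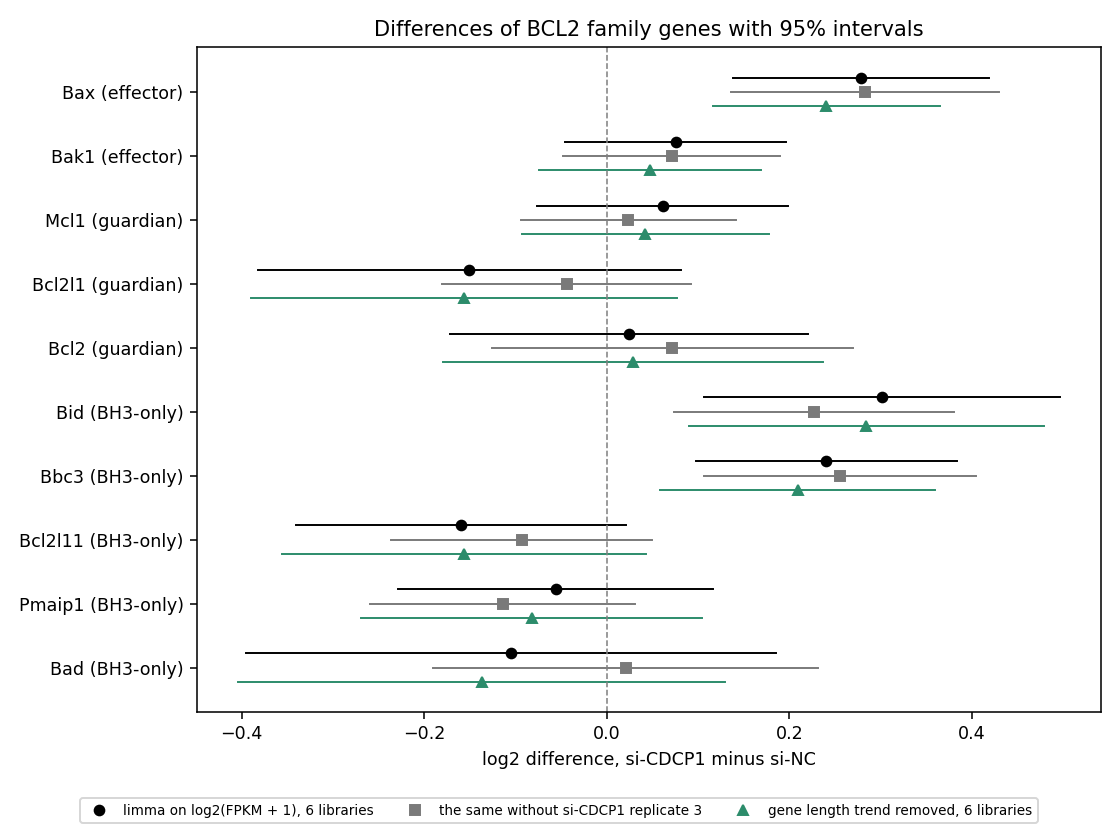
Log2 difference of each gene, si-CDCP1 minus si-NC, on log2(FPKM + 1) (horizontal axis), as a point with its 95% interval from limma: with all 6 libraries, without si-CDCP1 replicate 3, and with each library's trend with gene length removed. The intervals of Bax, Bid and Bbc3 lie above 0 in all 3 fits before adjustment over genes, and those of the other 7 genes include 0.

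Over the 10 genes, 3 had an unadjusted p under 0.05 in limma, all higher in si-CDCP1, and 0 had one with a lower value. Among all genes tested, 8.94% had such a p with a higher and 5.31% with a lower value in si-CDCP1, 14.3% in all. With equal FPKM sums in all libraries these counts over all genes went from 1080 higher and 642 lower to 537 higher and 1301 lower, and those over the 10 genes to 3 higher and 1 lower, the latter Bcl2l11 (log2 difference -0.21). With quantile normalisation they were 790 higher and 798 lower over all genes, and the members again 3 higher. The groups did not overlap for the same 3 genes, all higher, where 14.4% of all genes were higher without overlap and 10.6% lower. The median log2 difference of the 10 genes was 0.04, beside 0.01 over all genes tested, with 6 positive and 4 negative. For each of Bax, Bid and Bbc3 an exact two-sided permutation test over the 6 libraries gave p = 0.1, the smallest that 3 libraries against 3 can give.

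Some fits that give less part to si-CDCP1 replicate 3 did call them. With limma's library weights, adjusted p-values were 0.0383 for Bax, 0.0206 for Bbc3 and 0.0401 for Bid, in a fit that called 4.62% of genes higher. Those weights were 0.165 for si-CDCP1 replicate 3 and 5.11 for si-CDCP1 replicate 2, so the si-CDCP1 level there was largely that of 1 library. In limma voom on whole reads recovered from the FPKM, without si-CDCP1 replicate 3, Bax (adjusted p = 0.0106) and Bid (adjusted p = 0.0426) rose and 2.40% of genes were called higher. With read sums as library sizes in that voom fit 1.49% of genes were called higher, among them Bax (adjusted p = 0.0201) but not Bid (adjusted p = 0.0691). Limma on log2(FPKM + 1) without that library left Bax, Bbc3 and Bid at adjusted p-values of 0.121, 0.145 and 0.179.

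Counting error was smaller than these differences. The Bax values stood for between 1266 and 1736 reads a library, those of Bid for 1068 to 1510 and those of Bbc3 for 282 to 348. The ratio of reads per library total, si-CDCP1 over si-NC, was 1.22 for Bax (exact binomial 95% interval 1.17 to 1.27), 1.24 for Bid (1.19 to 1.30) and 1.21 for Bbc3 (1.10 to 1.32). These intervals cover counting error only, not the spread between cultures. The library totals are those implied by the FPKM, so the ratios carry the same library scaling as the FPKM. Summed over all genes, FPKM lay between 280056 and 282051 for si-NC and between 286916 and 294678 for si-CDCP1. The sums thus differed between the groups in the same direction as Bax, Bid and Bbc3. With equal FPKM sums the log2 differences were 0.22 for Bax, 0.25 for Bid and 0.19 for Bbc3. At the other end, Pmaip1 had as few as 245 and Bad 275 reads in a library, for which counting alone gives a CV of 6.39% and 6.03%.

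In si-CDCP1 replicate 3, 6 of the 10 genes lay outside the range of the other 5 libraries. Bid, Mcl1 and Pmaip1 were above all of them and Bcl2l1, Bcl2l11 and Bad below. Of all genes tested, 34.0% were above and 30.0% below the other 5 libraries in that library, so this share is near the background. Bax, Bak1, Bcl2 and Bbc3 lay within the range of the other libraries there.

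**Figure D3:**
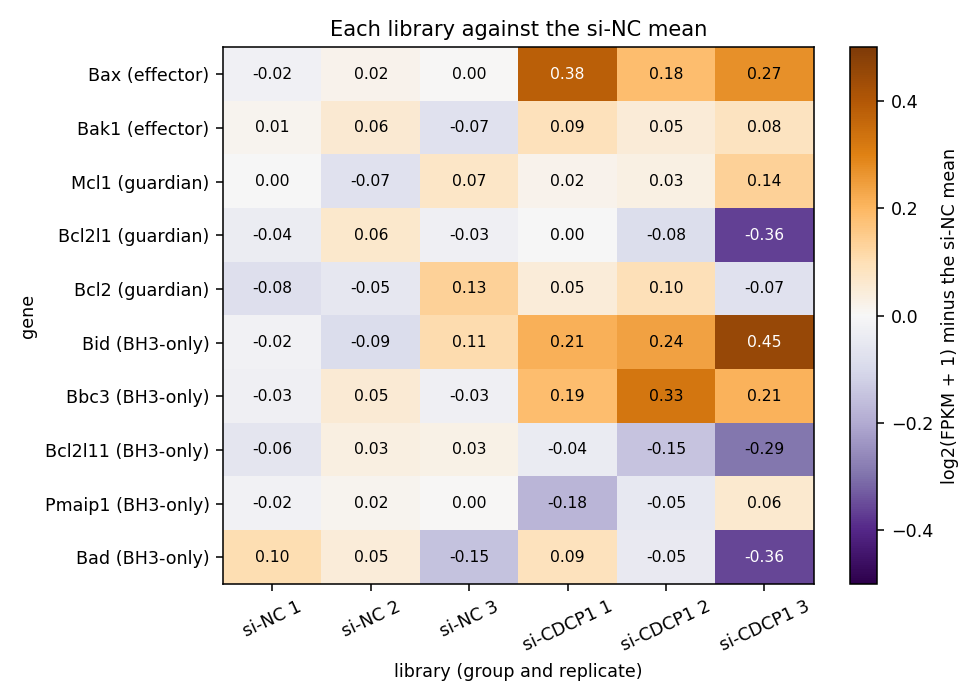
Log2(FPKM + 1) of each gene (rows) in each library (columns) minus the mean of the 3 si-NC libraries; orange is above and purple below that mean. Bax, Bid and Bbc3 are above it in all 3 si-CDCP1 columns, and the lowest values, for Bcl2l1, Bcl2l11 and Bad, are in si-CDCP1 replicate 3.

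Gene length moved with the libraries as well. Across genes, the deviation of si-CDCP1 replicate 1 from its group mean had a rank correlation with length of -0.232, and that of si-CDCP1 replicate 3 one of 0.145. Bax, at 1576 bases, is the shortest of the 10 genes and was highest in si-CDCP1 replicate 1. Bcl2, at 9157 bases, is the longest. With each library's length trend removed, the log2 differences were 0.24 for Bax, 0.28 for Bid and 0.21 for Bbc3, with limma adjusted p-values of 0.319, 0.319 and 0.320. The part of length in the remaining differences was not tested.

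Ratios within a library do not change when all its values are multiplied by 1 factor. A trend with gene length or quantile normalisation can change them. Bax, at 1576 bases, is shorter than Mcl1 (3418 bases) and Bcl2l1 (4586 bases), and the part of length in these ratios was not tested. Bax over Bcl2l1 was 5.64, 5.36 and 5.70 in si-NC and 7.30, 6.77 and 8.96 in si-CDCP1. All si-CDCP1 libraries were above all si-NC libraries, and the si-CDCP1 mean was 7.03 without replicate 3. Bax over Mcl1 was 1.12, 1.21 and 1.08 against 1.46, 1.26 and 1.24, again without overlap. Bax over Bcl2, a ratio often quoted for this family, was 10.7, 10.8 and 9.12 against 12.8, 10.7 and 13.1, and there the groups overlapped through si-CDCP1 replicate 2.

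Summed by role, the effectors over the guardians came to 1.36, 1.43 and 1.27 in si-NC and 1.63, 1.47 and 1.51 in si-CDCP1. The 3 guardians themselves, Bcl2l2 not included, summed to 56.5 ± 2.33 and 57.6 ± 0.661 FPKM (SD, n = 3 each). The 5 BH3-only genes summed to 53.3 ± 0.316 and 57.8 ± 0.343 FPKM. In mean FPKM, Bid and Bbc3 were higher in si-CDCP1 and Bcl2l11, Pmaip1 and Bad lower. Their share of the summed FPKM of the 10 genes averaged 28.7% in si-NC and 28.4% in si-CDCP1. Within that sum, Bid over Bcl2l11 was 2.53, 2.23 and 2.59 in si-NC and 2.94, 3.26 and 4.26 in si-CDCP1. These ratios and sums were formed from members whose values were known and are given without a test.

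**Figure D4:**
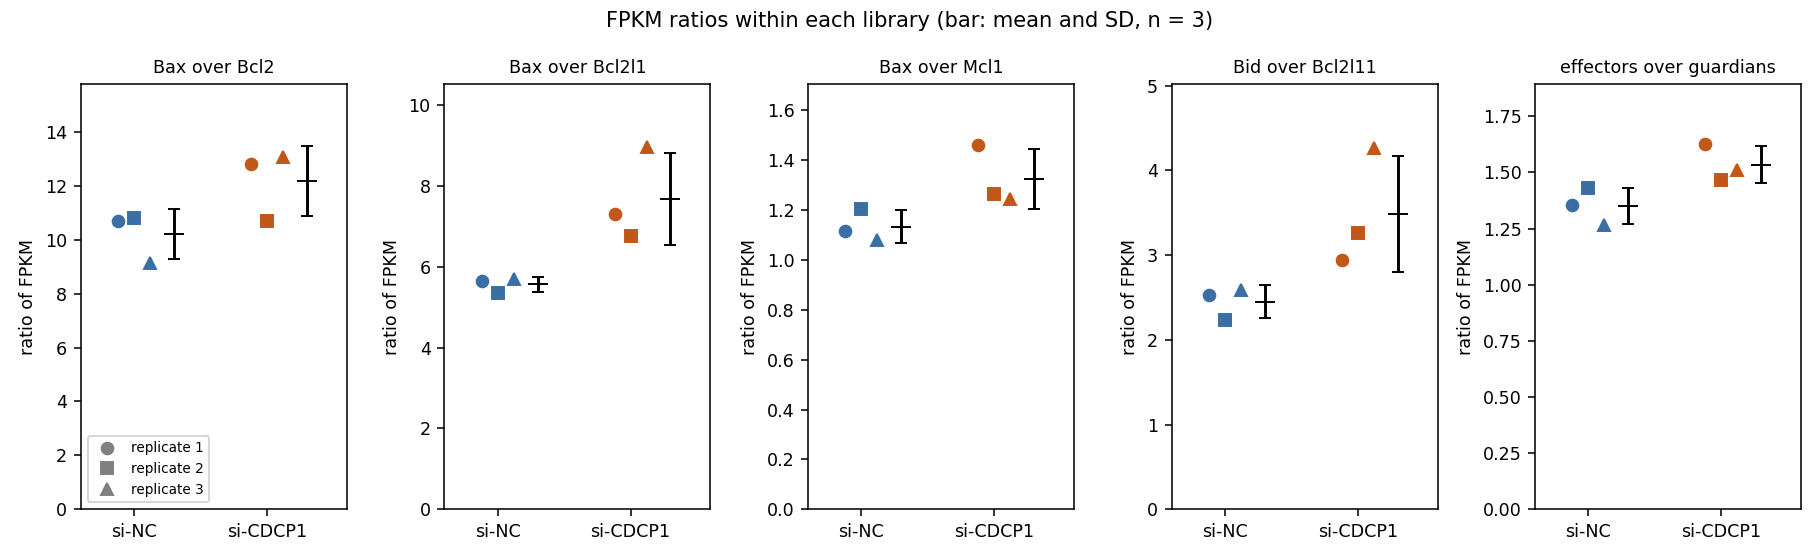
Ratios of FPKM within each library (vertical axes, from 0) for Bax over Bcl2, Bcl2l1 and Mcl1, Bid over Bcl2l11, and the summed effectors (Bax and Bak1) over the summed guardians (Mcl1, Bcl2l1 and Bcl2), with the mean and SD (n = 3). The groups overlap for Bax over Bcl2 and do not overlap for the other 4 ratios. Each numerator holds Bax or Bid, whose own FPKM did not overlap between the groups. For Mcl1 over Bcl2 and Mcl1 over Bcl2l1, not drawn, the groups overlapped.

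The genes lie on mm10 as follows, and all are protein coding. Bax (ENSMUSG00000003873) is on the minus strand of chromosome 7 from 45461697 to 45466898 and Bbc3 (ENSMUSG00000002083) on the plus strand of the same chromosome from 16308393 to 16318205. Bid (ENSMUSG00000004446) is on the minus strand of chromosome 6 from 120891930 to 120916853. It overlaps the opposite-strand gene Bcl2l13, another member of the family, at a mean of 11.3 FPKM. The strand setting of the counting is not given in the sources used here, so reads from Bid and Bcl2l13 may not have been told apart. Bcl2l13 was at 11.0 ± 0.418 and 11.6 ± 1.14 FPKM (SD, n = 3 each). Bad overlaps Gpr137 (mean 6.35 FPKM) and Bak1 overlaps Ggnbp1 (mean 1.17 FPKM), each on the opposite strand, and their values are uncertain for the same reason. The gene that overlaps Bax, Gm45808, is listed at 0 in all 6 libraries.

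Of 14 other BCL2 family genes, 6 were tested, and 0 passed over all genes in limma. Of these, 1 had an unadjusted p under 0.05, lower in si-CDCP1, beside 5.31% of all genes, and the median log2 difference was -0.03, with 3 positive and 3 negative. That gene was Bmf, a BH3-only gene, at 2.33 ± 0.158 and 1.72 ± 0.364 FPKM (SD, n = 3 each), a log2 difference of -0.30. Bcl2l2, which encodes the guardian BCL-W, was at 10.3 ± 0.594 and 9.39 ± 0.419 FPKM, and Bcl2l12 at 2.60 ± 0.197 and 2.32 ± 0.402 FPKM. For 2 of the 6 genes, Bmf and Bcl2l2, all si-CDCP1 libraries were below all si-NC libraries, and for 0 above. Over all genes these shares were 10.6% and 14.4%. Bmf, Bcl2l2 and Bcl2l12 were lowest in si-CDCP1 replicate 3, as were 4 of the 6, with 1 highest there, beside 30.0% and 34.0% of all genes. Without that library the log2 difference of Bmf was -0.19 and that of Bcl2l2 -0.10. At an unadjusted p under 0.05, 1 gene was then higher and 0 lower, beside 1300 higher and 702 lower over all genes. With quantile normalisation there were 0 in either direction, beside 790 higher and 798 lower over all genes. The gene higher without si-CDCP1 replicate 3 was Bok, an effector-like member named here after its values were seen. Its log2 difference was 0.07 over all libraries and 0.17 without si-CDCP1 replicate 3. The 4 Bcl2a1 copies of the mouse, near-identical genes best known from blood cells, were listed at 0 in every library, and Bcl2l10, Bik, Bcl2l14 and Bcl2l15 were below the level required for the test.

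Downstream of the mitochondrion, all 18 genes of the apoptosome, the caspases and their inhibitors were tested and 0 passed. Their median log2 difference was -0.05, with 7 positive and 11 negative. Cycs, which encodes the cytochrome c that the effectors release, was at 33.6 ± 0.174 and 41.5 ± 0.353 FPKM (SD, n = 3 each), a log2 difference of 0.29 with a limma adjusted p of 0.216. The initiator caspase gene Casp9 was at 5.68 ± 0.399 and 4.68 ± 0.658 FPKM. The log2 difference of Casp9 was -0.24, and -0.15 without si-CDCP1 replicate 3. For 6 of the 18 genes all si-CDCP1 libraries were below all si-NC libraries, and for 2 above, beside 10.6% and 14.4% of all genes. At an unadjusted p under 0.05, 1 was higher and 1 lower, beside 8.94% and 5.31% of all genes. With equal FPKM sums this became 1 higher and 5 lower. Over all genes, 1080 higher and 642 lower became 537 higher and 1301 lower with that scaling.

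In the death receptor arm, which acts upstream of Bid, 0 of 9 tested genes passed, and the median log2 difference was -0.00084. The adaptor gene Traf2 was at 18.3 ± 0.397 and 21.5 ± 2.54 FPKM (SD, n = 3 each), with its highest value in si-CDCP1 replicate 3; its log2 difference was 0.21 with that library and 0.12 without it. Casp8, whose product cleaves BID, was at 12.0 ± 0.767 and 11.1 ± 0.772 FPKM, and the receptor gene Fas at 5.64 ± 1.13 and 6.30 ± 0.664 FPKM.

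Of 10 transcription factors known to act on BCL2 family genes, 9 were tested, 0 passed, and 4 had an unadjusted p under 0.05, all with higher values in si-CDCP1, beside 8.94% of all genes. That number was 2 with equal FPKM sums, with quantile normalisation, with no intensity trend and without any 1 of the si-NC libraries. It was 3 without si-CDCP1 replicate 3. Over all genes the number higher went from 1080 to 537 with equal FPKM sums, 790 with quantile normalisation and 951 with no intensity trend. It went to between 598 and 709 without 1 si-NC library, and to 1300 without si-CDCP1 replicate 3. The median log2 difference of the 9 genes was 0.09. Ddit3, which encodes CHOP, a factor of endoplasmic reticulum stress that acts on Bbc3 and Bcl2l11, was at 94.2 ± 1.78 and 114.9 ± 7.87 FPKM (SD, n = 3 each), a log2 difference of 0.28. Myc was at 78.7 ± 0.780 and 99.8 ± 13.3 FPKM, and the stress factor gene Atf3 at 38.5 ± 0.282 and 56.7 ± 19.6 FPKM. Each of the 3 was highest in si-CDCP1 replicate 3, as were 6 of the 9, with 1 lowest there, beside 34.0% and 30.0% of all genes. Without that library the log2 differences were 0.23 for Ddit3, 0.23 for Myc and 0.23 for Atf3, the last down from 0.49. Trp53, which encodes p53 and is named here after its values were seen, was at 65.5 ± 3.60 and 65.5 ± 2.20 FPKM.

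Among 21 partners and modifiers of the family's proteins, 20 were tested and 0 passed, with a median log2 difference of 0.06. At an unadjusted p under 0.05, 4 were higher and 1 lower in si-CDCP1, beside 8.94% and 5.31% of all genes. Equal FPKM sums and quantile normalisation each gave 1 higher and 1 lower. Over all genes, 1080 higher and 642 lower became 537 and 1301 with equal FPKM sums, and 790 and 798 with quantile normalisation. Leaving out 1 si-NC library gave 0 or 1 higher and 0 lower. Over all genes it gave between 598 and 709 higher and between 317 and 389 lower. Pim1 and Pim3, kinase genes whose products phosphorylate BAD, were at 13.5 ± 0.189 and 16.3 ± 1.84 FPKM and at 47.3 ± 0.874 and 51.3 ± 0.559 FPKM (SD, n = 3 each). Ywhag, a 14-3-3 gene, was at 71.6 ± 0.964 and 78.8 ± 3.33 FPKM. Of the 20 genes, 9 were highest and 5 lowest in si-CDCP1 replicate 3, beside 34.0% and 30.0% of all genes.

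**Figure D5:**
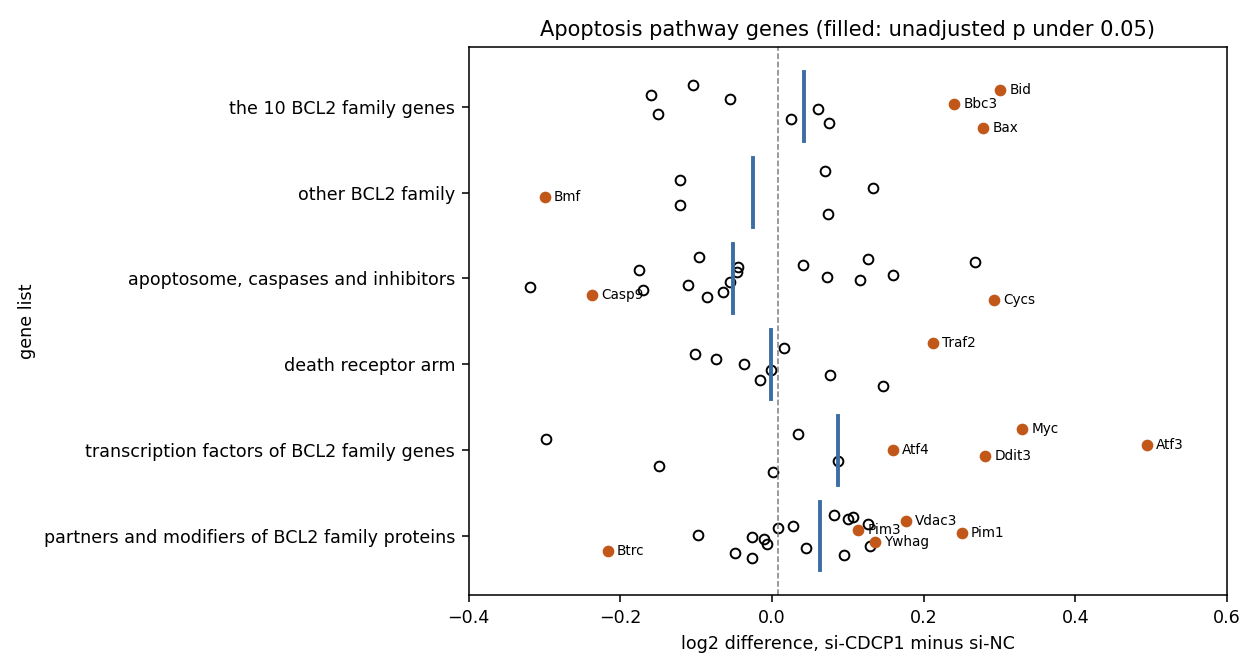
Log2 difference, si-CDCP1 minus si-NC (horizontal axis), of each tested gene of the 10 BCL2 family genes and of the 5 pathway lists (rows), with genes at an unadjusted p under 0.05 filled and named. Blue bars are list medians, between -0.05 and 0.09, and the dashed line is the median of all genes tested, 0.01; no gene passed after adjustment over all genes.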

How the data were processed

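RNA sequencing libraries of 3 si-NC and 3 si-CDCP1 cultures were grouped by sample title. The authors deposited FPKM values in 1 table with gene lengths; the submitters' processing notes name the build mm10, while nothing used here states the aligner, the counter or its strand setting. The deposited FPKM multiplied by gene length were whole multiples of 1 step in each library (100% of values within 0.01 of a whole read), which gave back whole reads; 3 reads, taken as the floor, are worth between 0.149 and 0.192 FPKM in a gene of 1 kb. Listed reads came to 98.4% of the implied library total throughout the control group. After the siRNA against CDCP1 the share was 99.9% (replicate 1), 99.9% (replicate 2) and 104.0% (replicate 3), so this offset followed the groups. A share above 100% means that the implied total of replicate 3 was below its listed reads. The reason was not tested. Log2(FPKM + 1) was tested with limma 3.58.1 (R 4.3.3, trend, mean of at least 1 FPKM, Benjamini-Hochberg over 12080 genes, threshold 0.05). The fit was also run on simulated data, in which no library stood apart as si-CDCP1 replicate 3 does here. The log2(FPKM + 1) scale understates differences of low genes. Exact tests used scipy 1.17.1. Voom kept genes with at least 10 reads in 3 libraries.

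The members and lists were chosen with earlier results of these data known. All 10 members are named, and up to 3 genes with the smallest p from each list. One gene that this rule names is not reported here. No label says that replicates were separate animals or isolations, so the spread behind the p-values may be purely technical. No replicates were duplicates (chi-square per degree of freedom of reads at least 2.86). Alternatives were other pseudocounts, filters, scalings, variance models, library weights, a replicate block, each library left out, and voom. Removal of the length trend (lowess, span 0.3) and read sums as voom library sizes were added after the data were seen. No sequences were used here.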

Additional observations from a re-analysis of the deposited data

How the results depend on the processing

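Bax, Bid and Bbc3 kept a positive log2 difference and an unadjusted p under 0.05 in each of the 22 alternatives run, with adjusted p-values from 0.0106 to 0.645, 0.0401 to 0.645 and 0.0206 to 0.645. The members called numbered 0 in all but 3 alternatives: 3 with library weights, 2 in voom without si-CDCP1 replicate 3, and 1 in that fit with read sums as library sizes. The same 3 alternatives called 1, 1 and 2 genes of the apoptosome list, 2, 3 and 3 of the transcription factors and 2, 2 and 1 of the partners and modifiers, and 0 in the other lists.

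Over all genes, limma called 0, with 1722 at an unadjusted p under 0.05. Calls numbered 865 with library weights, 493 in voom without si-CDCP1 replicate 3, 397 in that fit with read sums as library sizes and 5 in voom on all libraries. They numbered 7 without a filter, 2 and 4 at a mean of 0.1 and 5 FPKM, 1 with equal FPKM sums, 1 with median log ratio scaling, 2 with quantile normalisation, 3 with the length trend removed and 13 with that trend and si-CDCP1 replicate 3 both removed. Leaving out 1 library gave 0 or 1.

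Across all genes the replicate numbers showed no pairing of the libraries: deviations from the group means of libraries with the same number correlated at -0.020, 0.026 and 0.022. With the replicate number as a block, 1 gene and 0 of the 10 members were called, and Bax, Bid and Bbc3 each had a limma adjusted p of 0.329. With the block the SE fell for Bid (0.083 to 0.058), Bad (0.123 to 0.067), Bcl2l1 and Mcl1, and rose for the other members. Pairing of single genes was not tested.

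Small differences changed sign. Bcl2 went to -0.021 with equal FPKM sums and lay between -0.015 and 0.091 as each library was left out. Mcl1 went to -0.022 with quantile normalisation. With each library left out Pmaip1 lay between -0.11 and 0.0052 and Bad between -0.20 and 0.021. Bad was at 0.022 in voom without si-CDCP1 replicate 3 and at 0.00068 there with read sums as library sizes. The cause was not tested. With a library left out, a group of 2 is assumed to vary like the group of 3. Bcl2 was not tested at a mean of 5 FPKM, which it lies below.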
